A study of Homo sapiens with 12 samples.

Results

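The genes described here are 34 p53 target genes and regulators of apoptosis, picked by symbol from the 58907 genes of the deposited table, and all 34 symbols were found. They cover cell cycle arrest, feedback on p53, DNA repair and nucleotide supply, redox control, death receptors with caspase 8, and the BCL2 family. Of the 34 genes, 32 passed the filter on low counts. SPATA18 had 0 counts and PLK2 had 29 counts over the 12 libraries, and neither was tested. RNA was measured in a single engineered reporter line, (PPRE)-eGEP-THP-1, derived from the human monocytic leukaemia line THP-1. All cells were made into macrophages by 48 h in 25 ng/mL of the phorbol ester PMA and a rest of 24 h. The 4 groups, of 3 libraries each, were M1 cells given MCHP, M1 cells given DMSO, M2 cells given MCHP and, last, M2 cells given DMSO. M1 cells received lipopolysaccharide (100 ng/mL) with interferon gamma (20 ng/mL) for 24 h, and M2 cells received interleukin 4 with interleukin 13 (20 ng/mL each). MCHP, monocyclohexyl phthalate, is the monoester of the plasticizer dicyclohexyl phthalate and was added at 100 µM for the same 24 h. DMSO was its solvent.

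The transcription factor p53 responds to DNA damage and other stress by switching on genes that halt the cell cycle, repair DNA or promote death, and MDM2 marks it for degradation. Mitochondrial apoptosis is set by the BCL2 family, in which guardians such as MCL1 and BCL2A1 restrain the pore formers BAX and BAK1, while BH3-only proteins such as PMAIP1 (NOXA), BBC3 (PUMA), BID and BCL2L11 (BIM) relieve that restraint. Many of the genes listed here also answer to NF-kB, STAT factors and other regulators, so the name of the set describes textbook membership and not p53 activity.

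Libraries held 14352202 to 16871233 gene counts, and 15252 genes were tested. M2 DMSO replicate 1 was the least like its group: its log2 deviations from the rest of the group had an SD of 0.325 over genes, against 0.186 to 0.226 for the other 11 libraries. The label M1 fitted its markers, since CXCL9, CXCL10, CXCL11, IDO1, GBP5 and CD80 summed to 1141 to 1252 normalised counts (CPM, scaled with TMM factors) in M1 with MCHP and 1270 to 1311 CPM in M1 with DMSO, against 0.89 to 1.55 CPM in M2 with MCHP and 0.63 to 0.76 CPM in M2 with DMSO. Of 6 M2 markers, MAOA had 0 counts and MRC1 and CCL17 had at most 12 counts over all libraries. The other 3 did not move as 1 group. CCL22 averaged 14.2 CPM in M1 with MCHP, 12.3 CPM in M1 with DMSO, 1214 CPM in M2 with MCHP and 742 CPM in M2 with DMSO. CD209 averaged 60.6 CPM in M1 with MCHP, 53.5 CPM in M1 with DMSO, 107 CPM in M2 with MCHP and 161 CPM in M2 with DMSO. CLEC10A was higher in M1, against the label, with means of 18.1 CPM in M1 with MCHP, 22.3 CPM in M1 with DMSO, 0.708 CPM in M2 with MCHP and 1.43 CPM in M2 with DMSO. The 8 macrophage markers summed to at least 3426 CPM in every library, although CD68, a defining one, had only 36 counts. A share of 85.8% of its exon bases lies in the exons of other gene models. The 6 lymphocyte markers summed to 6.13 to 10.9 CPM per library, most of it from NKG7 and KLRD1, while the defining CD3D, CD3E and MS4A1 had 1, 3 and 0 counts over all libraries. Because RNA came from whole cultures, fewer cells of a type and less RNA per cell cannot be told apart. The labels call the libraries biological replicates without naming separate cultures, so p-values measure the spread between these libraries.

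In M2 cells, 3 genes of the set passed the test for MCHP against DMSO: BTG2 fell, and MCL1 and AEN rose. These were 9.38% of the 32 tested genes, against 5.11% of all 15252 genes tested (adjusted p under 0.05, edgeR's quasi-likelihood test). Over all genes, 2.92% were called higher and 2.18% lower (446 and 333 genes), a balance that turned round with library size alone (306 higher and 465 lower). The median log2 fold change of the 32 was -0.01, as against 0.00 over all genes, and 16 of them were above 0. The MCHP libraries lay wholly above or below the DMSO libraries for 13 of the 32 (40.6%), against 20.8% of all genes. Cell type markers moved in the same comparison: of the 3 tested M2 markers, CCL22 was higher (log2 fold change 0.71) and CD209 (-0.59) and CLEC10A (-0.99) were lower with MCHP in M2, and of 7 tested macrophage markers CSF1R (-0.32) and FCER1G (-0.47) were lower. FCER1G was not called by the DESeq2 Wald test (adjusted p = 0.0896) or limma-voom (0.0759). Its change was only -0.20 without M2 DMSO replicate 1. CLEC10A was not called by limma-voom (adjusted p = 0.0733). With the M2 libraries fitted alone, FCER1G (adjusted p = 0.212), CLEC10A (0.203) and CSF1R (0.0614) did not pass in edgeR. The part of these marker shifts in the changes of the set was not tested.

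BTG2, an anti-proliferative gene that is induced by p53 and by other signals, lies on chromosome 1 from 203305491 to 203309602 (hg38, plus strand). It had 104.5, 111 and 106 CPM in M2 with MCHP, against 159, 140.3 and 147 CPM in M2 with DMSO. Every MCHP library was below every DMSO library. BTG2 fell by 0.47 ± 0.06 on the log2 scale (SE; adjusted p = 0.000115, edgeR's quasi-likelihood test), and this call held under all 13 alternatives. In M1 it had 224, 219.7 and 218 CPM with MCHP and 234, 241.5 and 227 CPM with DMSO, groups that also did not overlap, but its log2 fold change of -0.09 ± 0.06 did not pass (adjusted p = 0.989).

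MCL1, a short-lived guardian of the mitochondrial membrane, lies on chromosome 1 from 150574551 to 150579738 (minus strand). It had 1920, 1914 and 1965 CPM in M2 with MCHP, against 1712, 1702 and 1705 CPM in M2 with DMSO. The M2 groups did not overlap, and libraries within a group lay close together. The rise was small, 0.18 ± 0.04 on the log2 scale (adjusted p = 0.0199, edgeR's quasi-likelihood test). In M1, MCL1 had 3590, 3575 and 3472 CPM with MCHP and 3571, 3590 and 3570 CPM with DMSO. These groups overlapped (log2 fold change -0.01 ± 0.04).

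AEN, an exonuclease known as a p53-induced promoter of apoptosis, lies on chromosome 15 from 88621296 to 88632282 (plus strand). It had 29.1, 31.2 and 27.9 CPM in M2 with MCHP, against 24.8, 23.5 and 22.0 CPM in M2 with DMSO, again without overlap. AEN rose by 0.33 ± 0.08 on the log2 scale (adjusted p = 0.0278, edgeR's quasi-likelihood test). In M1 it had 37.2, 33.99 and 37.8 CPM with MCHP and 31.2, 33.5 and 30.9 CPM with DMSO. These groups did not overlap either, with a log2 fold change of 0.19 ± 0.08 (adjusted p = 0.879).

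The calls of MCL1 and AEN were fragile. With library size alone in place of TMM scaling, MCL1 and AEN did not pass (adjusted p = 0.0727 and 0.07, edgeR) and TNFRSF10B was called lower. MCL1 was also lost without M2 MCHP replicate 1 (adjusted p = 0.0712) or replicate 3 (0.0556) and without M2 DMSO replicate 2 (0.054). AEN was lost without any single M2 MCHP library (0.0568 to 0.103) and without M2 DMSO replicate 2 (0.0623) or replicate 3 (0.0895). When the M2 libraries were fitted alone, the adjusted p of MCL1 was 0.259 and that of AEN was 0.173.

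**Figure D1:**
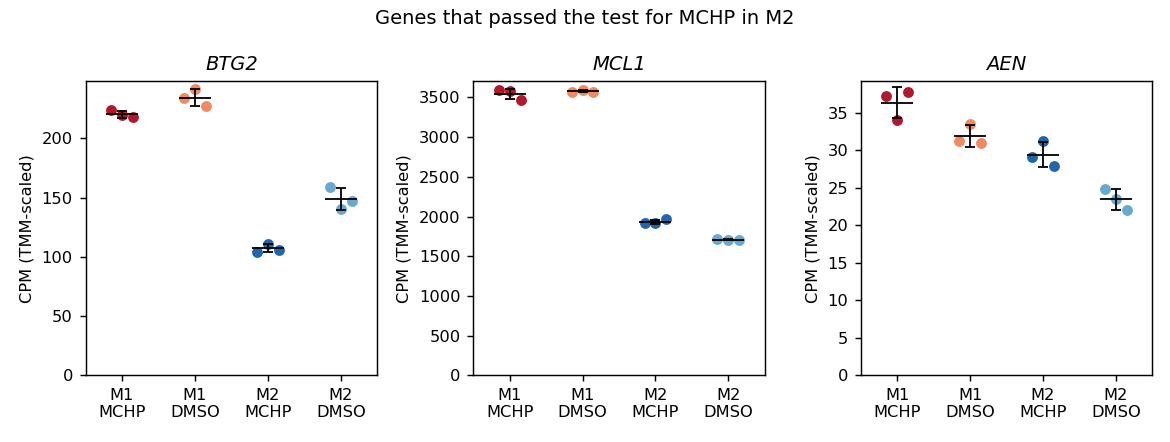
Normalised counts (CPM, TMM-scaled) of BTG2, MCL1 and AEN in each of the 12 libraries; points are libraries, horizontal lines are group means and bars are SDs of 3 libraries. In M2, BTG2 averaged 107 CPM with MCHP and 149 CPM with DMSO, MCL1 averaged 1933 and 1707 CPM, and AEN averaged 29.4 and 23.5 CPM in the same order of groups.

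This comparison depended on M2 DMSO replicate 1. In this library, for example, BCL2A1 was 77.5% above the mean of the rest of its group. BBC3 was 45.5% below that mean. Without this library, 10 of the 32 genes passed (31.2%), against 11.2% of the 15629 genes then tested. The higher ones were MCL1, AEN, SESN1, RRM2B, CCNG1 and BCL2L11, with log2 fold changes between 0.18 for MCL1 and 0.37 for AEN. The lower ones were BTG2 (-0.42), BBC3 (-0.27), CDKN1A (-0.19) and TNFRSF10B (-0.18). For BBC3, CDKN1A and SESN1 leaving the library out moved the estimate itself by more than 1.5 times: with all libraries kept it was -0.04 for BBC3, -0.12 for CDKN1A and 0.13 for SESN1, against 0.30 for SESN1 without the library. The largest adjusted p among the 10 was that of RRM2B (0.0489, edgeR's quasi-likelihood test). SESN1 encodes a stress-induced inhibitor of TORC1 signalling, RRM2B a subunit of ribonucleotide reductase for DNA repair, CCNG1 the p53-induced cyclin G1 and TNFRSF10B the TRAIL receptor DR5.

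With all libraries kept, PHLDA3 and BCL2L11 came near the threshold in M2. PHLDA3, an inhibitor of AKT signalling induced by p53, had 11.0, 12.4 and 11.3 CPM in M2 with MCHP, against 5.54, 8.59 and 8.10 CPM in M2 with DMSO. The groups did not overlap and the log2 fold change was 0.64 ± 0.19 (adjusted p = 0.0558, edgeR's quasi-likelihood test). BCL2L11 had 54.2, 51.3 and 58.7 CPM with MCHP and 47.9, 45.1 and 42.4 CPM with DMSO (log2 fold change 0.28 ± 0.08, adjusted p = 0.0531, edgeR). FAS, the receptor for the death ligand FASLG, was counted at 15 to 17 reads per M2 library with MCHP and 22 to 34 reads with DMSO. Its log2 fold change of -0.71 ± 0.27 did not pass (adjusted p = 0.15, edgeR), and its 95% confidence interval ran from -1.34 to -0.09. TNFRSF10B (adjusted p = 0.108) and BCL2L1 (0.139, edgeR) were nearer the threshold than FAS. Without M2 DMSO replicate 1 the change was smaller for PHLDA3 (0.48, adjusted p = 0.0721) and for FAS (-0.51, adjusted p = 0.336, edgeR).

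In M1 cells no gene of the set passed for MCHP against DMSO (0 of 32 by edgeR's quasi-likelihood test, where 0.0852% of all genes passed). DESeq2 and limma-voom also called 0, and 1 gene, AEN, had an unadjusted p under 0.05 (3.12%, against 5.36% of all genes). The median log2 fold change was 0.02, as against 0.00 over all genes. The MCHP libraries lay wholly above or below the DMSO libraries for 8 of the 32 (25%), against 15.9% of all genes. For 28 of the 32 genes the 95% confidence interval of the change lay within 1.5-fold in either direction. The other 4 were PHLDA3, FDXR, TP53I3 and TIGAR, which had only 10 to 38 counts in any M1 library. BCL2A1, a guardian induced by NF-kB, had 128, 123 and 137 CPM in M1 with MCHP, against 141, 157 and 152 CPM in M1 with DMSO. The groups did not overlap (log2 fold change -0.21 ± 0.14, adjusted p = 0.992, edgeR), and BCL2A1 was called without M2 DMSO replicate 1 (adjusted p = 0.0444, where 1.02% of all genes passed) and when the M1 libraries were fitted alone.

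The difference between the M1 and M2 responses was tested directly. No gene of the set passed (0 of 32 by edgeR's quasi-likelihood test, where 0.164% of all genes passed), limma-voom called 0 and DESeq2 called 1, BTG2. At an unadjusted p under 0.05 there were 5, namely BTG2, MCL1, RRM2B, CCNG1 and FAS (15.6%, against 8.84% of all genes). BTG2 came nearest, with a response that was 0.38 ± 0.08 higher in M1 than in M2 on the log2 scale (adjusted p = 0.0878, edgeR). Without M2 DMSO replicate 1, 3 of the 32 passed, where 2.46% of all genes did: BTG2 (0.33), CDKN1A (0.22) and MCL1 (-0.20).

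**Figure D2:**
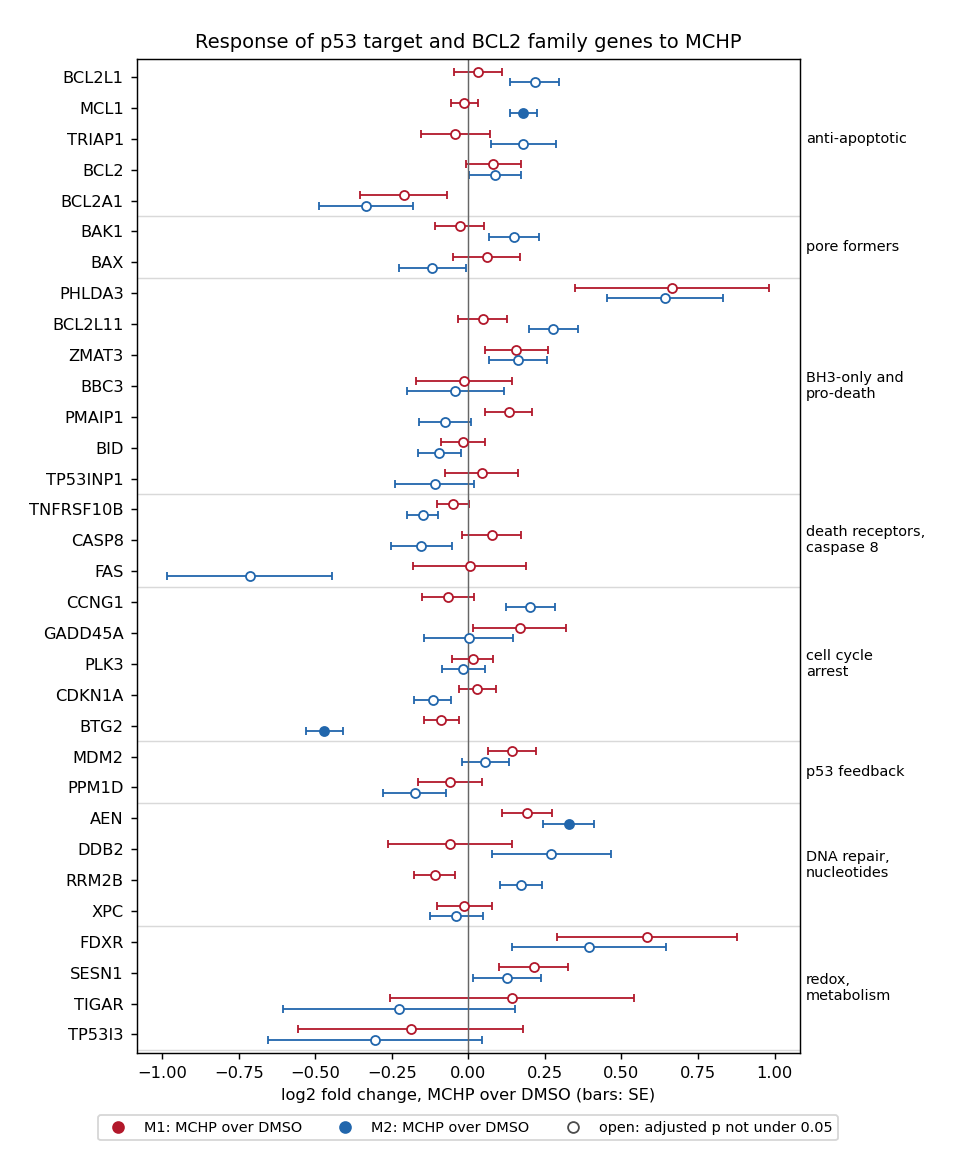
Log2 fold change for MCHP over DMSO of the 32 tested genes, grouped by role, in M1 (red) and M2 (blue); bars are SEs and filled points have an adjusted p under 0.05. The filled points are BTG2, MCL1 and AEN in M2, and most other estimates in both polarizations are smaller than 0.4 in size.

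Promoters of the set were searched for short motifs, on both strands, in the 250 bases before the start of the first RefSeq promoter entry of each gene (GRCh38.p14). Of the 34 genes, 28 had an entry. The consensus of a single p53 response-element unit, the decamer bound by a p53 dimer, occurred in 4 of the 28 (AEN, FDXR, BAK1 and PLK2), and in 5.57% of 35114 promoters. The direct-repeat element of PPAR receptors occurred in none of the 28 and in 0.0171% of all promoters. A match is a description of the letters and not a bound site. The AEN, BAK1 and FDXR stretches are shown because AEN rose with MCHP in M2, while BAK1 and FDXR differed between M1 and M2. Capitals mark the p53 unit, and each stretch is the 200 bases just before the RefSeq start. The stretches lie at chr15:88621140-88621339 (plus strand), chr6:33580277-33580476 (minus strand) and chr17:74872995-74873194 (minus strand). Of their 200 bases, 44, 17 and 37 also lie in a GENCODE exon of the gene.
AEN: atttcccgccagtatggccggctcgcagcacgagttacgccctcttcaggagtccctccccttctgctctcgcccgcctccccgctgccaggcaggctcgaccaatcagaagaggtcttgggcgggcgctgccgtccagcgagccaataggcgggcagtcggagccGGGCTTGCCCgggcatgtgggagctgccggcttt
BAK1: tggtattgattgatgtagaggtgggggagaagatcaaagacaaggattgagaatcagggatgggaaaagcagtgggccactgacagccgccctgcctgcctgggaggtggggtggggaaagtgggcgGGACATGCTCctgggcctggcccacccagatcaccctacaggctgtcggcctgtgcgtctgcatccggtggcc
FDXR: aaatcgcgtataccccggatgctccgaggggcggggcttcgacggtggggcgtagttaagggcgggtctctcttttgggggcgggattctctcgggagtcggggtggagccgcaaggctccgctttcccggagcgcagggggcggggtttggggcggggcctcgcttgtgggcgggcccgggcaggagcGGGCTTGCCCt
AEN and FDXR carried the same unit, GGGCTTGCCC, at 34 and 11 bases before the start, and BAK1 carried GGACATGCTC at 73 bases before it.

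More genes of the set differed between M1 and M2 than between MCHP and DMSO. With DMSO, 24 of the 32 tested genes differed between M1 and M2 cells (75%), of which 14 were higher and 10 lower in M1, where 42.5% of all genes passed (21.6% higher and 20.9% lower, edgeR's quasi-likelihood test). With MCHP, 21 of the 32 differed (65.6%), 13 higher and 8 lower, where 44.6% of all genes passed (21.9% higher and 22.7% lower). With library size alone the split over all genes shifted, to 2395 higher and 4532 lower with DMSO and 2678 higher and 4338 lower with MCHP, and the set had 12 higher and 10 lower with DMSO and 13 higher and 10 lower with MCHP. The 21 were all among the 24, with the same direction (87.5% of the calls with DMSO and 100% of those with MCHP). GADD45A, RRM2B and FDXR passed with DMSO alone, and their difference between the MCHP responses of M1 and M2 did not pass (adjusted p = 0.881, 0.37 and 0.929, edgeR). The median log2 difference of the 32 was 0.05 with DMSO and 0.07 with MCHP, as against 0.00 over all genes in both. Scaling by library size alone shifted all genes by -0.13 with DMSO. No called gene changed direction under any alternative. M1 and M2 libraries did not overlap for 24 of the 32 genes with DMSO (75%), against 49.5% of all genes, and for 25 with MCHP (78.1%), against 57% of all genes. Without M2 DMSO replicate 1, 23 passed under each treatment (71.9%), where 46.2% of all genes passed with DMSO and 51.3% with MCHP.

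**Figure D3:**
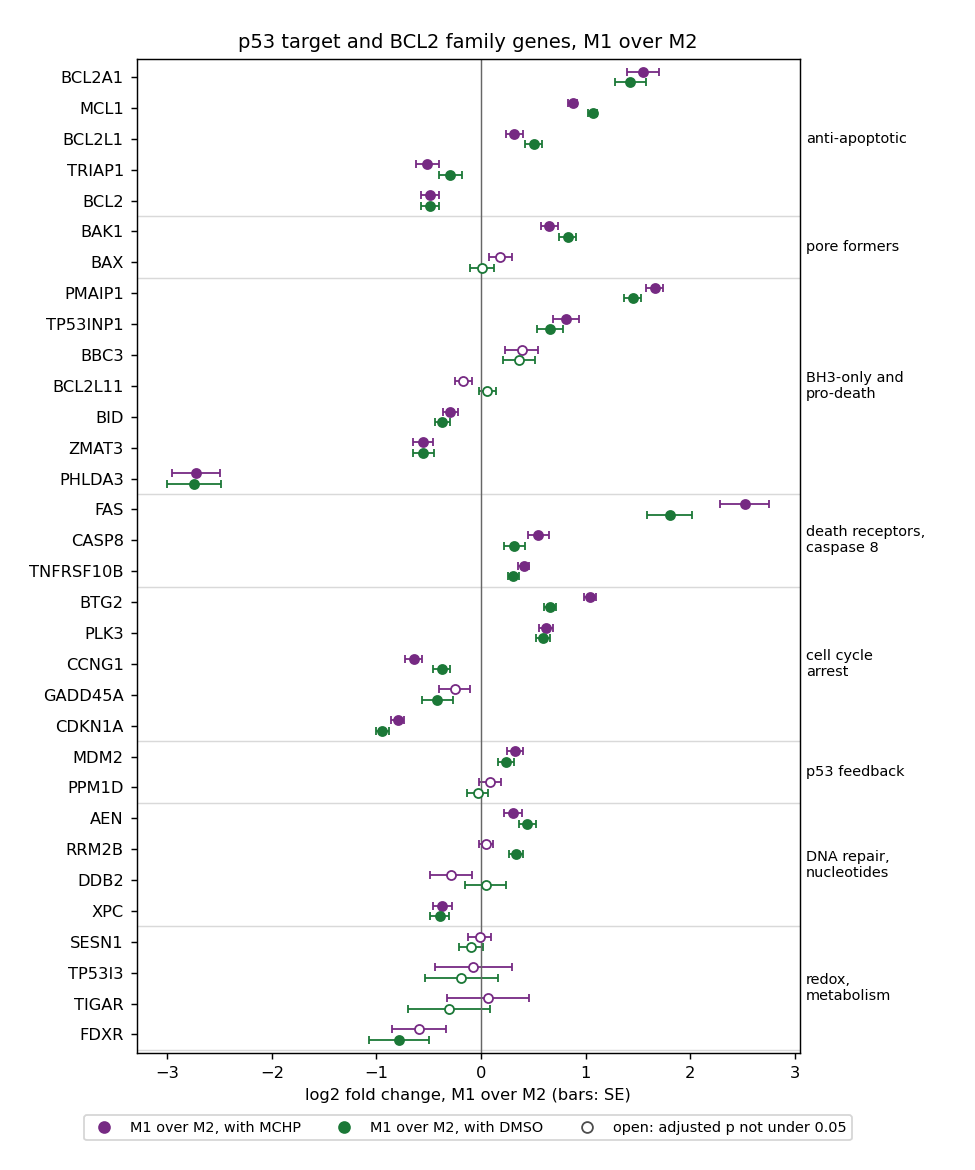
Log2 difference of M1 over M2 for the 32 tested genes, grouped by role, with MCHP (purple) and with DMSO (green); bars are SEs and filled points have an adjusted p under 0.05. FAS, PMAIP1, BCL2A1 and MCL1 lie far to the right, PHLDA3 lies far to the left, and estimates with MCHP and DMSO lie near each other for most genes.

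Among the death receptors and caspase 8, all 3 genes were higher in M1 under both treatments. Over all genes, 21.6% were called higher with DMSO and 21.9% with MCHP. FAS (chromosome 10, 88990582 to 89015785) had 7.29, 5.53 and 4.77 CPM in M1 with DMSO, against 2.14, 1.29 and 1.60 CPM in M2 with DMSO. With MCHP it had 6.01, 5.74 and 5.84 CPM in M1, against 1.03, 0.987 and 1.03 CPM in M2. No library of M2 reached the lowest of M1. The log2 difference was 1.80 ± 0.21 with DMSO (adjusted p = 1.28e-06, edgeR's quasi-likelihood test) and 2.52 ± 0.23 with MCHP. TNFRSF10B averaged 371 CPM in M1 and 299.5 CPM in M2 with DMSO (log2 difference 0.31 ± 0.05). CASP8, the initiator caspase of the receptor pathway, averaged 31.6 CPM in M1 and 25.4 CPM in M2 with DMSO, a small difference (0.32 ± 0.10, adjusted p = 0.0133, edgeR). It did not pass without M1 DMSO replicate 2 (adjusted p = 0.0535), without M2 DMSO replicate 2 (0.0796) or with library size alone (0.141).

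Of the BH3-only and other pro-death targets, 7 were tested and 5 differed under both treatments, in both directions. This was 71.4%, where 42.5% of all genes passed with DMSO and 44.6% with MCHP. PMAIP1, whose product NOXA binds MCL1 and BCL2A1, had 90.6, 87.0 and 85.8 CPM in M1 with DMSO, against 36.6, 29.5 and 30.4 CPM in M2 with DMSO. With MCHP it had 96.5, 92.5 and 99.4 CPM in M1, against 31.6, 31.7 and 28.1 CPM in M2. It was higher in M1 by 1.45 ± 0.08 on the log2 scale with DMSO (adjusted p = 3.37e-11, edgeR) and by 1.66 ± 0.08 with MCHP, without overlap in either. TP53INP1, a stress-induced cofactor of p53, had 15.01, 16.0 and 15.7 CPM in M1 with DMSO, against 9.51, 9.59 and 10.5 CPM in M2 with DMSO (log2 difference 0.66 ± 0.12). PHLDA3 (chromosome 1, 201464383 to 201469237) showed the opposite pattern. It had 1.22, 0.674 and 1.40 CPM in M1 with DMSO, against the 5.54 to 8.59 CPM of M2 with DMSO given above. With MCHP it had 2.38, 1.31 and 1.51 CPM in M1, against 11.0 to 12.4 CPM in M2. The log2 difference was -2.75 ± 0.26 with DMSO (adjusted p = 5.68e-08, edgeR) and -2.72 ± 0.23 with MCHP. A share of 19.1% of the exon bases of PHLDA3 lies in exons of another gene model, all of it on the same strand.

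ZMAT3, an RNA-binding p53 target, had 16.9, 18.3 and 18.8 CPM in M1 with DMSO, against 23.5, 27.4 and 28.3 CPM in M2 with DMSO. It was lower in M1 by a log2 difference of -0.55 ± 0.10 with DMSO and -0.56 ± 0.10 with MCHP, without overlap. BID, which links caspase 8 to the mitochondria, was also lower in M1, with means of 61.4 CPM in M1 with DMSO and 79.5 CPM in M2 with DMSO (log2 difference -0.37 ± 0.07). BBC3 (log2 difference 0.36 ± 0.16) and BCL2L11 (0.06 ± 0.08) did not pass with DMSO.

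The 2 pore formers differed from each other in pattern. BAK1 (chromosome 6, 33572547 to 33580293) had 139, 148 and 139.5 CPM in M1 with DMSO, against 67.2, 86.4 and 86.2 CPM in M2 with DMSO. With MCHP it had 146, 141 and 131 CPM in M1, against 89.1, 89.3 and 87.4 CPM in M2. BAK1 was thus higher in every M1 library, by 0.83 ± 0.08 on the log2 scale with DMSO (adjusted p = 1.06e-07, edgeR) and 0.65 ± 0.08 with MCHP. BAX averaged 25.5 CPM in M1 and 25.3 CPM in M2 with DMSO, and its log2 difference of 0.01 had a 95% confidence interval from -0.24 to 0.26.

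All 5 anti-apoptotic genes differed between M1 and M2 under both treatments, with 3 higher and 2 lower in M1. Over all genes, 42.5% passed with DMSO and 44.6% with MCHP. BCL2A1 (chromosome 15, 79960889 to 79971446) had the M1 values given above, against 45.3, 46.5 and 40.7 CPM in M2 with MCHP and 78.8, 43.6 and 45.2 CPM in M2 with DMSO. Its log2 difference was 1.55 ± 0.15 with MCHP and 1.42 ± 0.15 with DMSO (adjusted p = 2.55e-07 with DMSO, edgeR). MCL1, with the values given above, was higher in M1 by 1.07 ± 0.04 with DMSO (adjusted p = 3.44e-13, edgeR) and 0.88 ± 0.04 with MCHP, and its 6 M1 libraries were all above its 6 M2 libraries. BCL2L1, which encodes BCL-xL, averaged 100.4 CPM in M1 and 70.8 CPM in M2 with DMSO (log2 difference 0.50 ± 0.08). A share of 43% of its exon bases lies in exons of other gene models. BCL2 had 18.9, 19.9 and 20.4 CPM in M1 with DMSO, against 27.2, 27.5 and 28.3 CPM in M2 with DMSO, and was lower in M1 under both treatments (log2 difference -0.49 ± 0.09 in each). TRIAP1, a p53 target that restrains caspase 9, was lower in M1 with DMSO (log2 difference -0.29 ± 0.11, adjusted p = 0.0377, edgeR). This call was lost without M1 DMSO replicate 1 (adjusted p = 0.195) or replicate 2 (0.0683) and without M2 DMSO replicate 1 (0.0611) or replicate 3 (0.0965). The TRIAP1 call was also lost with no filter on low counts and with only the compared libraries.

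BCL2A1 and CASP8 were the only 2 of the 28 genes with a promoter entry whose window held the gamma-activated site TTCNNNGAA of STAT factors, which occurred in 6.57% of all promoters. BCL2A1 was also the only one with the core of the interferon-stimulated response element, which occurred in 3.02%. The stretches of BCL2A1 and CASP8 are shown since both genes were higher in M1, the cells given lipopolysaccharide with interferon gamma. Both motif counts are near the shares over all promoters. FAS and PMAIP1, also higher in M1, had a promoter entry and held neither motif. Any part of the motifs in these differences was not tested. Capitals mark the 2 motifs in BCL2A1 (chr15:79971197-79971396, minus strand) and the gamma-activated site in CASP8 (chr2:201233263-201233462, plus strand). All 200 bases of the BCL2A1 stretch lie in the exon of a longer GENCODE transcript, against 20 of the 200 for CASP8.
BCL2A1: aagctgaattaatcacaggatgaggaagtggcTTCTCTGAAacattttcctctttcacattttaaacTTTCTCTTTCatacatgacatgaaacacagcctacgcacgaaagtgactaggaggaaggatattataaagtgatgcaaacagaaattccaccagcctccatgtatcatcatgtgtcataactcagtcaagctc
CASP8: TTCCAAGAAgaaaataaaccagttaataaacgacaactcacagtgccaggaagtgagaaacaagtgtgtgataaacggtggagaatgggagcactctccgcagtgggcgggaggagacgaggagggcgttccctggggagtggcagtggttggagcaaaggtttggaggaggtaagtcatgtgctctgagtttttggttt
The gamma-activated sites lie 168 and 200 bases before the RefSeq starts of BCL2A1 and CASP8. An NF-kB consensus was found in ZMAT3 and TIGAR, and in 9.96% of all promoters.

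Of the 5 tested genes of cell cycle arrest, all differed between M1 and M2 with DMSO, where 42.5% of all genes passed. CDKN1A (chromosome 6, 36676460 to 36687339), which encodes the kinase inhibitor p21, had 1332, 1315 and 1275 CPM in M1 with DMSO, against 2242, 2642 and 2652 CPM in M2 with DMSO. With MCHP it had 1376, 1333 and 1292 CPM in M1, against 2373, 2344 and 2232 CPM in M2. It was lower in every M1 library, by a log2 difference of -0.94 ± 0.06 with DMSO (adjusted p = 3.11e-10, edgeR) and -0.80 ± 0.06 with MCHP. GADD45A, a stress-induced growth arrest gene, had 18.1, 15.4 and 16.6 CPM in M1 with DMSO, against 19.2, 25.9 and 21.6 CPM in M2 with DMSO (log2 difference -0.42 ± 0.15). GADD45A did not pass without M1 DMSO replicate 2 (adjusted p = 0.114) or replicate 3 (0.078) or without M2 DMSO replicate 2 (0.151). BTG2 was higher in M1, by 0.66 ± 0.06 on the log2 scale with DMSO and 1.04 ± 0.06 with MCHP. PLK3, a stress-responsive kinase, was higher in M1 by 0.59 ± 0.07 with DMSO, and CCNG1 was lower (log2 difference -0.38 ± 0.08).

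The remaining roles were feedback on p53, DNA repair and redox control. MDM2 averaged 56.1 CPM in M1 and 47.7 CPM in M2 with DMSO (log2 difference 0.24 ± 0.08). It did not pass without M1 DMSO replicate 3 (adjusted p = 0.0691), without M2 DMSO replicate 2 (0.0677) or with library size alone (0.284, edgeR). PPM1D, a phosphatase that acts on p53, did not pass. AEN and RRM2B were higher in M1 with DMSO (0.44 ± 0.08 and 0.33 ± 0.07), XPC, a damage sensor of nucleotide excision repair, was lower (-0.40 ± 0.09), and DDB2 did not pass. Other gene models share 30.4% of the exon bases of XPC, none on the same strand. They share 45.6% of those of TIGAR, with 42.6% on the same strand. Of the redox genes, FDXR, a mitochondrial reductase, was the only one of 4 that passed with DMSO, where 42.5% of all genes passed. It had 0.858, 1.42 and 0.827 CPM in M1 with DMSO, against 1.51, 2.12 and 1.71 CPM in M2 with DMSO (log2 difference -0.78 ± 0.28, adjusted p = 0.0336, edgeR). FDXR did not pass without M1 DMSO replicate 1 (adjusted p = 0.114) or replicate 3 (0.132), or without M2 DMSO replicate 2 (0.128) or replicate 3 (0.0552). FDXR was also lost with the DESeq2 Wald test, with no filter on low counts and with only the compared libraries. SESN1, TP53I3 and TIGAR did not pass, and TP53I3 and TIGAR had fewer than 50 counts in every library.

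**Figure D4:**
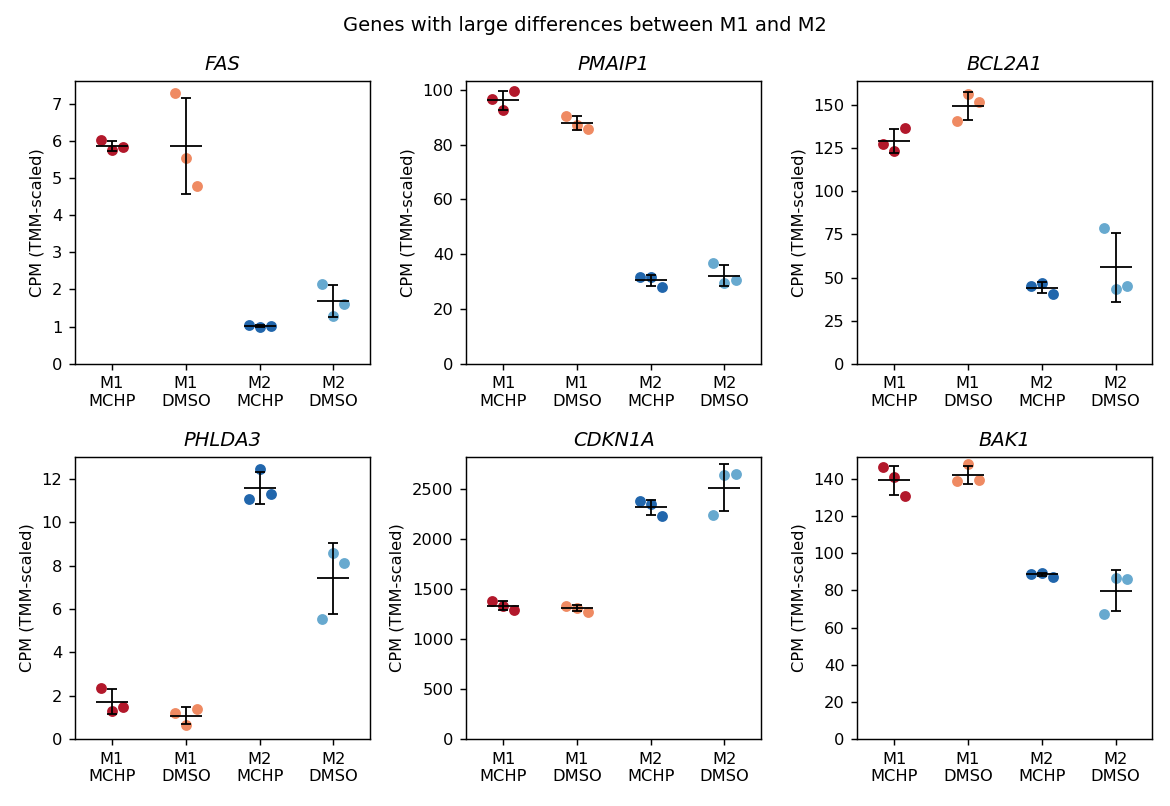
Normalised counts (CPM, TMM-scaled) in each of the 12 libraries of 6 genes with a large difference between M1 and M2; points are libraries, horizontal lines are group means and bars are SDs of 3 libraries. FAS, PMAIP1, BCL2A1 and BAK1 are higher in M1 and PHLDA3 and CDKN1A are lower, and in BCL2A1, BAK1 and CDKN1A the outlying M2 DMSO point is replicate 1.

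Levels of the 10 BCL2 family genes were set beside each other per length. The length was that of all exons of a gene model together, from 1089 bases for BCL2A1 to 11765 for BCL2. The lengths of the transcripts present were not measured, and the order of levels depends on the lengths used. MCL1 was the highest in every group, with 811 CPM per kb of gene model in M1 with MCHP and 818 CPM per kb in M1 with DMSO, and with 442 CPM per kb in M2 with MCHP and 390.4 CPM per kb in M2 with DMSO. BCL2A1 followed with 119, 137, 40.6 and 51.3 CPM per kb in the same order of groups, and BAK1 with 63.0, 64.2, 40.1 and 36.1 CPM per kb. In M1, PMAIP1 ranked next, with 43.0 CPM per kb with MCHP and 39.3 CPM per kb with DMSO. In M2 it ranked below BCL2L1 and BID, with 13.6 CPM per kb with MCHP and 14.4 CPM per kb with DMSO. BCL2 was the lowest in every group, between 1.68 CPM per kb in M1 with DMSO and 2.50 CPM per kb in M2 with MCHP. The libraries of BBC3 and BAX overlapped in every group, so their order was not resolved. In M2 the same held for BBC3 and BCL2L11, for BCL2A1 and BAK1 with MCHP, and for BCL2L1 and BID with DMSO. Only neighbours in the order were compared in this way, so genes further apart may overlap as well.

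**Figure D5:**
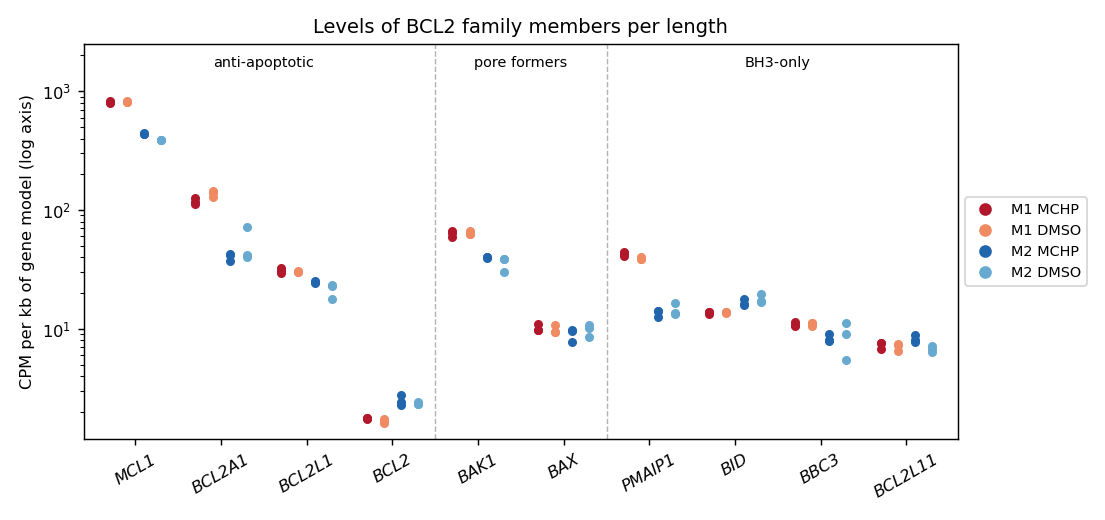
Normalised counts per kb of gene model (log axis) of 10 BCL2 family genes in each of the 12 libraries, grouped as anti-apoptotic, pore-forming and BH3-only; each point is a library. MCL1 lies above all others in every group, PMAIP1, BCL2A1 and BAK1 are higher in M1 than in M2, and BCL2 is the lowest.

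Other genes of the pathway were read from further lists. HIPK2, a stress-responsive nuclear kinase from a list of p53 controllers, passed for MCHP in M2, where it averaged 173 CPM with MCHP and 137 CPM with DMSO (log2 fold change 0.34 ± 0.06, adjusted p = 0.0035, edgeR). It did not pass when the M2 libraries were fitted alone (adjusted p = 0.078).

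Of 28 tested further p53 targets, 1 passed for MCHP in M1 (3.57%) and 2 in M2 (7.14%), against 0.0852% and 5.11% of all genes. ATF3, a stress-induced transcription factor, averaged 646 CPM in M1 with MCHP and 516.5 CPM in M1 with DMSO (log2 fold change 0.32 ± 0.06, adjusted p = 0.0379, edgeR), a call lost when any single M1 library was left out (adjusted p = 0.172 to 0.312). DRAM1, a lysosomal regulator of autophagy, averaged 45.9 CPM in M2 with MCHP and 32.8 CPM in M2 with DMSO (0.48 ± 0.07, adjusted p = 0.000686). TRIM22, which is also an interferon-induced gene, was lower in M2 with MCHP (-0.64 ± 0.17, adjusted p = 0.04, edgeR). This call was lost without M2 DMSO replicate 1 (-0.34, adjusted p = 0.0701) and without M2 MCHP replicate 1 (0.172) or replicate 3 (0.178). TRIM22 was higher in M1 than in M2 by 5.25 ± 0.15 on the log2 scale with DMSO. In this list 11 genes were higher and 4 lower in M1 with DMSO (53.6% called, against 42.5% of all genes). BTG1 (1.40 ± 0.06) and DRAM1 (0.96 ± 0.07) were among the higher ones and E2F7 (-1.002 ± 0.06) among the lower.

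Among caspases, death receptors and inhibitor-of-apoptosis genes, 24 of 27 were tested. For MCHP in M2, 2 passed, both lower (8.33%, against 5.11% of all genes). TNFSF10, the death ligand TRAIL, had 14.5, 13.5 and 12.3 CPM in M2 with MCHP, against 28.0, 19.9 and 22.0 CPM in M2 with DMSO. The groups did not overlap (log2 fold change -0.79 ± 0.10, adjusted p = 0.000176, edgeR), and the difference from its M1 response did not pass (adjusted p = 0.0666, edgeR). DESeq2 called it for that difference, as the 1 gene of this list (adjusted p = 0.00146), and limma-voom called 0. BIRC3, an inhibitor of apoptosis induced by NF-kB, had a log2 fold change of -0.34 ± 0.10 in M2 (adjusted p = 0.0433, edgeR), and was lost without any single M2 MCHP library (0.0793 to 0.171) and without M2 DMSO replicate 2 (0.0598). BIRC3 was also not called by limma-voom (0.0544) or with the M2 libraries alone (0.19), and without M2 DMSO replicate 1 its change was smaller, -0.20 (adjusted p = 0.0427, edgeR). Between M1 and M2, 11 genes were higher and 5 lower in M1 under each treatment. That was 66.7% of the list, against 42.5% of all genes with DMSO and 44.6% with MCHP. With DMSO, TNFSF10 was higher in M1 by 3.18 ± 0.09, CASP10 by 1.59 ± 0.11 and RIPK1 by 1.07 ± 0.07, whereas TNFRSF10D, a TRAIL decoy receptor, was lower (-2.67 ± 0.10).

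Of 8 tested further BCL2 family genes, 0 passed for MCHP in either polarization by edgeR, DESeq2 or limma-voom. In each, 2 had an unadjusted p under 0.05, where 5.36% of all genes did in M1 and 18.8% in M2 (edgeR). Between M1 and M2, 5 differed under each treatment (62.5%, against 42.5% of all genes with DMSO and 44.6% with MCHP). With DMSO, BCL2L2 was higher in M1 (log2 difference 0.51 ± 0.08), and the BH3-only genes BIK (-1.60 ± 0.17), HRK (-1.34 ± 0.21) and BMF (-0.44 ± 0.06) were lower. Of 12 proliferation markers, 0 passed for MCHP in M1 or M2 by edgeR, DESeq2 or limma-voom. At an unadjusted p under 0.05 there were 2 in M1 and 3 in M2, beside the same 5.36% and 18.8% of all genes. Between M1 and M2, 1 was higher and 3 were lower in M1 with MCHP (median log2 difference -0.19). With DMSO, 2 were higher and 0 lower in M1 (median 0.18). These were 33.3% of the 12 markers with MCHP and 16.7% with DMSO, against 44.6% and 42.5% of all genes.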

How the data were processed

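Polyadenylated RNA was sequenced from 12 libraries. The authors' deposited values are raw gene counts, not normalized, as the file headers and values show. For its making, the submitters' processing notes name featureCounts 1.5.0-p3, HISAT2 2.0.5, fastp, DESeq2 1.20.0, StringTie 1.3.3b and the build hg38, without saying what each did. The strand setting is not given in the sources used here, so a gene's reads cannot be told apart from those of an antisense or overlapping gene. Tests on the counts used edgeR 4.0.16 in R 4.3.3: filterByExpr (minimum count 10) over 4 groups kept 15252 genes and at least 99.82% of each library's counts, scaling was by TMM, and all 12 libraries were fitted with 1 mean per group (8 residual degrees of freedom). The quasi-likelihood F-test was two-sided, with Benjamini-Hochberg adjustment over all genes tested and a threshold of 0.05. Standard errors follow from the F statistic, and the 95% intervals use a t quantile with 8 degrees of freedom. These intervals are wider than the test implies. For BCL2A1 with MCHP in M2 the interval was -0.69 to 0.02, beside an unadjusted p of 0.0439 (edgeR's quasi-likelihood test). CPM are TMM-scaled. The 5 contrasts set MCHP against DMSO within each polarization, compared these 2 responses, and set M1 against M2 with MCHP and with DMSO; contrasts that share libraries are not independent. Values per library are given for genes called for MCHP and for the 6 largest called changes in each direction between M1 and M2 with DMSO; PHLDA3, BCL2L11 and FAS in M2, BCL2A1 in M1 and all other named genes outside that rule were chosen after their values were seen. From each further list, up to 4 called genes per contrast with the smallest p were named; 1 list is not reported here in full. Members and lists were chosen with earlier results of these data known. Alternatives were DESeq2 size factors, library size alone, no filter, a replicate block, limma-voom (limma 3.58.1), DESeq2 1.42.0, the compared libraries only, and each library left out. Promoters came from RefSeq (GRCh38.p14); coordinates of genes are those of the table. The steps were checked on simulated counts.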

Additional observations from a re-analysis of the deposited data

How the results depend on the processing

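The count of genes of the set that passed for MCHP in M2 was 3, and it was 6 with no filter on low counts, 6 with the DESeq2 Wald test and 1 with only the M2 libraries; leaving out 1 library gave 1 to 10, the highest without M2 DMSO replicate 1 and 1 without M2 MCHP replicate 1, M2 MCHP replicate 3 or M2 DMSO replicate 2. In M1 the count was 0, and 1 with only the M1 libraries (0 to 1 with a library left out). For the difference of responses it was 0, and 1 with no filter and 1 with DESeq2 (0 to 3 with a library left out). Between M1 and M2 it ranged over 20 to 23 with DMSO and 21 to 23 with MCHP when a library was left out. Of the 24 calls with DMSO, 19 held under every alternative; CASP8, FDXR, GADD45A, MDM2 and TRIAP1 were lost at least once, and the cause was not tested. Over all genes, M1 gave 13 calls, 76 with no filter, 5 with the replicate block, 50 with DESeq2, 295 with the M1 libraries only and 1 to 159 with a library left out. M2 gave 779, 183 with the M2 libraries only and 383 to 1747 with a library left out. The difference gave 25, 170 with no filter, 96 with DESeq2 and 5 to 385 with a library left out. No pairing by replicate number was seen, as correlations of same-numbered deviations ran from -0.066 to 0.071 over 18 pairs. Differently numbered libraries were not compared, so this check cannot show whether same-numbered libraries shared a culture. With the replicate block 0, 3 and 0 genes of the set passed for MCHP in M1, MCHP in M2 and the difference. For M1 against M2, 25 passed with DMSO and 22 with MCHP under the block. Counts under 50 per library limit FDXR, TP53I3 and TIGAR. The same limit holds for PHLDA3 in M1 (10 to 38 counts) and FAS in M2 (15 to 34 counts).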

Other observations

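A few genes of cell death had 0 counts in all 12 libraries: SPATA18, PERP, EDA2R and RIPK3. The libraries hold 187332926 counts together, so a floor of 3 counts over all of them corresponds to 0.016 CPM. PERP and EDA2R are p53 targets in other cell types, and RIPK3 is a kinase of necroptosis. RIPK1, its partner, was counted in every library, with means of 88.5 CPM in M1 with MCHP and 86.5 CPM in M1 with DMSO, and of 48.6 CPM in M2 with MCHP and 41.1 CPM in M2 with DMSO.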
